A study of Homo sapiens with 4 samples.

Results

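The genes described here are the 3 NOMO copies (NOMO1, NOMO2 and NOMO3) and 4 genes whose proteins work with NOMO in the multipass translocon of the endoplasmic reticulum (NCLN, TMEM147, CCDC47 and TMCO1). They are 7 of the 60606 genes in the count table. NOMO1 was picked because its count was higher after siLOC730101 than after siControl in these same libraries, and the other 6 were taken by name as its near-identical copies and its partners. The change of the 7 genes between the groups is therefore given below as a description, without a p-value. All 7 passed the filter on low counts.

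The study addressed the long noncoding RNA LOC730101 in prostate cancer cells resistant to the prostate cancer drug darolutamide. Polyadenylated RNA was sequenced from LNCaP-DaroR, a darolutamide-resistant line derived from the LNCaP prostate cancer line, after transfection of either a control siRNA (siControl, 2 libraries) or an siRNA pool aimed at LOC730101 (siLOC730101, 2 libraries). All 4 libraries came from this resistant line, so parental LNCaP cells are not part of the comparison. The labels number 2 replicates in each group and do not say whether these were separate cultures, so the p-values below measure only the spread between these libraries, which may be technical.

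The libraries held from 39213498 to 53368158 counts. The targeted gene, listed as ENSG00000216775 on chromosome 6 from 52664366 to 52669155 (GRCh38), had 47.4 and 50.6 normalized CPM (counts scaled to a library of 1000000) in the siControl libraries and 15.4 and 17.9 CPM in the siLOC730101 libraries, a reduction of 66.0%. The 7 luminal prostate markers examined, among them KLK3, KLK2 and FOLH1, were all detected in this line, at a summed 5178 to 5863 CPM. The summed level was at most 0.158 CPM for the leukocyte markers and 0.632 CPM for the basal markers. It was 5.84 to 9.44 CPM for the endothelial and 13.9 to 17.98 CPM for the fibroblast markers. VWF made up nearly all of the endothelial sum, with CDH5 at 0 CPM in every library and PECAM1 at most 0.053 CPM. COL1A1 made up most of the fibroblast sum, with COL3A1 at 2.863 to 3.87 CPM and COL1A2 at 0 CPM in every library. Of the markers with enough counts to be tested, 0 passed the edgeR threshold, beside 0.284% of all genes tested. With so few markers, this cannot show that none of them changed.

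Membrane proteins are threaded into the endoplasmic reticulum through the SEC61 channel, and proteins with many membrane spans recruit a set of extra factors behind that channel. NOMO, nicalin (NCLN) and TMEM147 form the BOS complex, CCDC47 pairs with WDR83OS in the PAT complex, which shields polar membrane spans, and TMCO1 pairs with RAB5IF in the GEL complex, which belongs to the Oxa1 family of insertases. NOMO itself is a glycoprotein with a long folded part in the lumen, and the human genome carries it in 3 near-identical copies within duplicated blocks of the short arm of chromosome 16.

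Because the copies differ by so little, their sequences set how far a count can be assigned to one of them. The main transcripts of the GENCODE annotation on GRCh37 were aligned over 4312 bases and differed at 25 positions, 21 of them in the coding part, so that 99.42% of the aligned bases were identical in all 3. NOMO1 alone differed at 15 positions, NOMO2 alone at 5 and NOMO3 alone at 5. The 15 positions of NOMO1 lay from 1341 to 4245 of its transcript, and the 5 differences before them were changes of NOMO2 or NOMO3. NOMO1 differed from NOMO2 at 20 positions and from NOMO3 at 20, whereas NOMO2 and NOMO3 differed from each other at 10. The longest stretch without any difference was 539 bases, from position 288 to 826 of the NOMO1 transcript.

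Coding windows that hold differences from each copy show what a read has to cover. The first window spans an exon junction of 2 coding exons and has 64 bases. It lies at chr16:14951472-14951512 and chr16:14956870-14956892 on the plus strand for NOMO1, at chr16:18549848-18549888 and chr16:18544479-18544501 on the minus strand for NOMO2, and at chr16:16349975-16350015 and chr16:16355359-16355381 on the plus strand for NOMO3 (GRCh37). It is shown because each copy has a base of its own in it, and the capitals mark the positions at which the copies differ.
NOMO1: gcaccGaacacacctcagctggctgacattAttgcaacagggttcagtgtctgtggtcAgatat
NOMO2: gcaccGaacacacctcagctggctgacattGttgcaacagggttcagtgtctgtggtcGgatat
NOMO3: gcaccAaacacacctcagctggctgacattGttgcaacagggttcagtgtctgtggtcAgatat

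The second window has 50 bases within 1 coding exon, at chr16:14958494-14958543 (plus strand) for NOMO1, chr16:18542828-18542877 (minus strand) for NOMO2 and chr16:16356983-16357032 (plus strand) for NOMO3 (GRCh37). It is shown because the copies can all be told apart within a single exon here, with capitals again at the differing positions.
NOMO1: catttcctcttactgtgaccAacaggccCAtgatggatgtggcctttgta
NOMO2: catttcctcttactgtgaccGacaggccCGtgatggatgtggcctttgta
NOMO3: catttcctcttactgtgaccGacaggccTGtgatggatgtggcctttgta

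**Figure D1:**
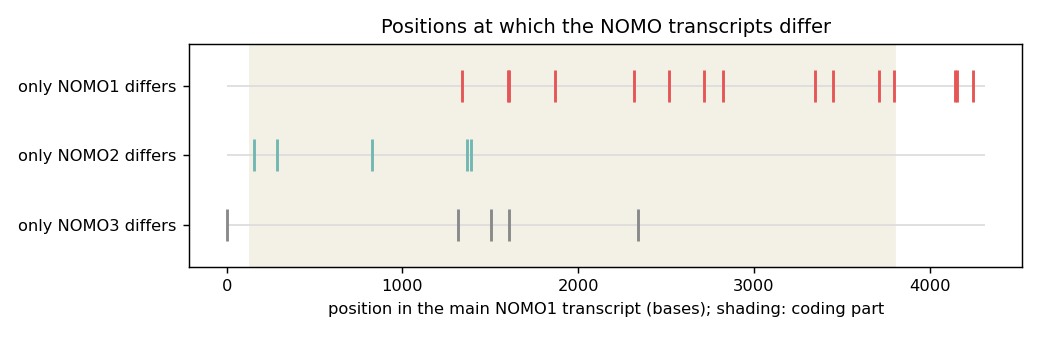
Positions at which the main NOMO transcripts differ, by position in the NOMO1 transcript in bases, with 1 row for each copy that alone differs and the coding part shaded. NOMO1 alone differs at 15 positions, NOMO2 and NOMO3 alone at 5 each.

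Of all windows of 100 bases, 30.0% of those in NOMO1 were found in neither other copy, against 15.8% in NOMO2 and 10.4% in NOMO3. With windows of 150 bases the shares were 41.1%, 22.7% and 14.1%. Most stretches of that length in each copy thus matched another copy exactly. No transcript of any other gene in the annotation shared 50 bases in a row with a main NOMO transcript. The longer exon models used for counting were not compared with other genes in this way. The counting command in the table header has no option to count reads with several matches or to separate strands. Whether reads matching several copies were left out or placed on a single copy also depends on the aligner. The submitters' notes name BWA for this step and the paper names STAR. The placing of such reads was not tested, and the values of the single copies are read with that limit below.

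NOMO1 lies on the plus strand of chromosome 16 from 14833721 to 14896157 (GRCh38, as in the table), with 5776 exon bases. After siControl its counts were 3411 and 2459, and after siLOC730101 they were 5302 and 5945. In normalized CPM these were 63.1 and 52.5 against 129 and 157. Both siLOC730101 libraries stood above both siControl libraries. The means were 57.8 ± 7.47 and 142.8 ± 19.5 CPM (SD, n = 2), 2.47-fold higher, with a log2 fold change of 1.30 (SE 0.108).

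NOMO2 lies on the minus strand of the same chromosome from 18417325 to 18562211, with 6801 exon bases. Its siControl counts were 3633 and 3570 and its siLOC730101 counts 3048 and 2892, which were 67.2 and 76.3 against 74.2 and 76.2 CPM. The groups overlapped, and the log2 fold change of 0.068 was smaller than its SE of 0.0907. The gene model of NOMO2 in the table reaches 82.6 kb further downstream than the RefSeq gene (GRCh38.p14), so counts outside the NOMO2 transcript itself can be included.

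NOMO3 lies on the plus strand from 16232506 to 16300806, with 12002 exon bases, the longest exon sum of the 7 genes. Its counts were 1958 and 1531 in siControl and 1220 and 969 in siLOC730101, and its CPM were 36.2 and 32.7 against 29.7 and 25.5. Both siLOC730101 libraries were below both siControl libraries, with a log2 fold change of -0.32 (SE 0.117), the opposite sign to NOMO1. The 3831 tested genes of 8000 exon bases or more, NOMO3 among them, had a median log2 fold change of -0.042, with 39.3% above 0. Its exons share 114 bases with ENSG00000262848 and 84 with MIR3179-2, both at 0 counts in every library.

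Added up before scaling, the 3 copies had 9002 and 7560 counts in siControl and 9570 and 9806 in siLOC730101, or 166.5 and 161.5 against 232.9 and 258.3 CPM. The siControl libraries lay close together and both siLOC730101 libraries were above them. The sum was 1.5-fold higher, with a log2 fold change of 0.58 (SE 0.0783). In CPM, the difference of siLOC730101 minus siControl was 85.0 for NOMO1, 3.44 for NOMO2 and -6.86 for NOMO3, which together gave 81.6 for the sum. The decrease of NOMO3 was thus far smaller than the increase of NOMO1. The rise of the sum came from counts assigned to NOMO1, which was picked for its rise, so the sum is no separate evidence.

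The split between the copies moved along with the sum. Since NOMO1 was picked for its higher count, its higher share and its higher ratios to the other copies restate that change. NOMO1 took 37.9% (95% Wilson interval 36.9 to 38.9) and 32.5% (31.5 to 33.6) of the NOMO counts in the siControl libraries, and 55.4% (54.4 to 56.4) and 60.6% (59.7 to 61.6) in the siLOC730101 libraries. NOMO2 went from 40.4% and 47.2% to 31.8% and 29.5%, and NOMO3 from 21.8% and 20.3% to 12.7% and 9.9%. These intervals cover counting error only, and they are too narrow where both mates of a read pair were counted.

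In siControl, NOMO1 had 0.939 and 0.689 counts for each count of NOMO2, and in siLOC730101 1.74 and 2.06. For each count of NOMO3 it had 1.74 and 1.61 in siControl and 4.35 and 6.14 in siLOC730101. The ratio of NOMO2 to NOMO3 was 1.86 and 2.33 in siControl and 2.50 and 2.99 in siLOC730101. Both siLOC730101 ratios were above both siControl ratios for each pair of copies. Whether reads were assigned to the copies in the same way in all libraries was not tested, since only counts were analysed here.

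**Figure D2:**
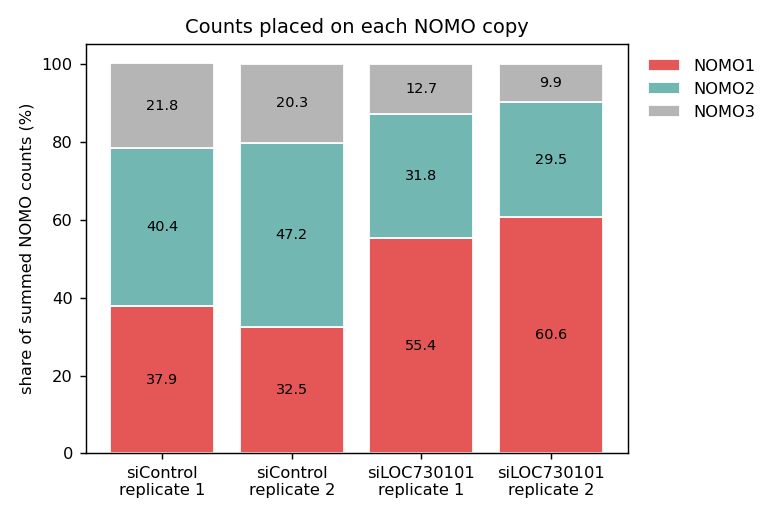
Share of the summed NOMO counts assigned to each copy, in percent, as stacked bars for each of the 4 libraries. NOMO1 holds 32.5% to 37.9% in the siControl libraries and 55.4% to 60.6% in the siLOC730101 libraries.

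The partners in the BOS complex differed less than NOMO1, which was picked for its change. NCLN, on the plus strand of chromosome 19 from 3185563 to 3209575, encodes the nicalin subunit that binds NOMO. It had 152.3 and 150.2 CPM in siControl and 139.9 and 148.6 CPM in siLOC730101, from 8234, 7029, 5747 and 5642 counts. The siLOC730101 values were both just below the siControl values, and the log2 fold change of -0.068 was smaller than its SE of 0.0769.

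TMEM147 encodes the small membrane-embedded subunit of BOS and lies on the plus strand of chromosome 19 from 35545600 to 35547526. Its counts were 4619 and 3964 in siControl and 4013 and 4309 in siLOC730101, and its CPM were 85.5 and 84.7 against 97.7 and 113.5. Both siLOC730101 libraries were above both siControl libraries, though they differed from each other by more than the nearer of them differed from siControl. The log2 fold change was 0.31 (SE 0.0894), or 1.24-fold, and did not pass the edgeR threshold. It was 0.197 without siLOC730101 replicate 2 and 0.425 without replicate 1, and TMEM147 was called in 3 of the 13 alternatives.

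The 1927 exon bases of TMEM147 put it among 2225 tested genes of 1000 to 2000 bases, which had a median log2 fold change of 0.06 with 55.8% above 0, where the median over all 19349 genes tested was -0.002. It shares 93 exon bases with TMEM147-AS1, which had 7.71 and 6.43 CPM in siControl and 7.28 and 4.71 CPM in siLOC730101, with overlapping groups. Reads of these genes in the shared bases were not separated by strand, and the counting command has no option to count reads that overlap several genes. By that command, reads touching the shared bases count for neither gene. How many reads of TMEM147 were left out in this way was not tested.

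CCDC47, on the minus strand of chromosome 17 from 63745255 to 63776351, encodes the larger subunit of the PAT complex and was the most abundant member. It had 387.0 and 390.2 CPM in siControl and 370.7 and 362.0 CPM in siLOC730101, from 20922, 18262, 15230 and 13744 counts. The siLOC730101 libraries lay below the siControl libraries without overlap, by a log2 fold change of -0.085 (SE 0.0699).

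Its partner WDR83OS could not be measured, with 0 and 1 counts in siControl and 0 and 0 in siLOC730101. Only 82 of its 713 exon bases belong to no other gene in the table, and 619 are shared with ENSG00000285589, which had 187 and 100 counts in siControl and 77 and 60 in siLOC730101. The counting command has no option to count reads that overlap several genes, so a count near 0 says nothing here on the level of WDR83OS RNA.

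TMCO1, on the minus strand of chromosome 1 from 165724293 to 165827755, encodes the insertase of the GEL complex. It had 215.5 and 215.1 CPM in siControl and 208.1 and 226.0 CPM in siLOC730101, so that the siLOC730101 libraries lay on either side of siControl. The log2 fold change was 0.011 (SE 0.0756). It shares 142 exon bases with UCK2 on the other strand, which had 2254 to 3062 counts in a library.

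RAB5IF, the partner of TMCO1, had 19.0 and 20.7 CPM in siControl and 23.1 and 28.4 CPM in siLOC730101. Its log2 fold change of 0.37 (SE 0.132, adjusted p = 0.277, edgeR) did not pass the test, and 53.1% of its 1472 exon bases are shared with other genes.

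Of the 7 members, 1, NOMO1, passed an adjusted p under 0.05 in edgeR, and it was picked for that change. Among all 19349 genes tested, 55 passed (0.284%), 41 higher (0.212%) and 14 lower (0.0724%). Without a filter beyond 1 count, 2 members, NOMO1 and TMEM147, and 1.37% of all genes passed. Leaving out siLOC730101 replicate 1 brought the genes called to 923 higher and 272 lower, and NOMO3 and TMEM147 were then called too. With a library left out, 1 group is a single library, which is assumed to vary like the other group, and only the spread of that other group enters the fit. The groups did not overlap for 5 members, with NOMO1 and TMEM147 higher and NOMO3, NCLN and CCDC47 lower in siLOC730101, against 41.7% of all genes tested. An exact two-sided permutation test for any member could give no p below 0.333 with 2 libraries against 2. In bulk RNA, fewer cells expressing a gene and less of its RNA per cell cannot be told apart.

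**Figure D3:**
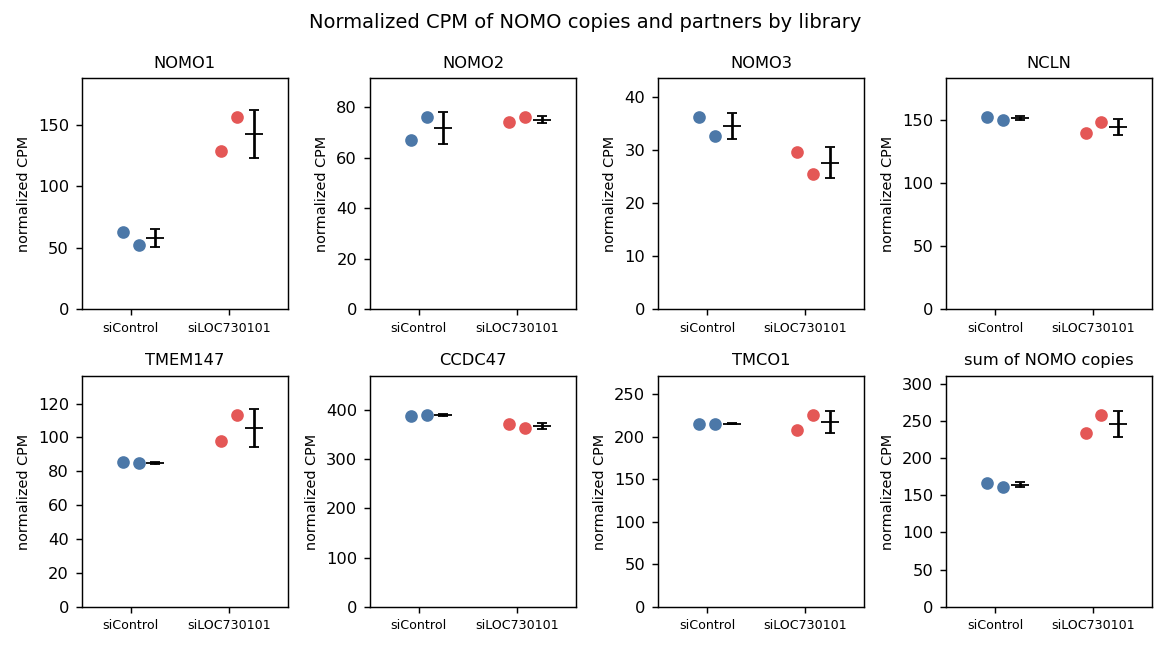
Normalized CPM of the 7 members and of the summed NOMO copies in the siControl and siLOC730101 libraries, each point a library, with the mean and SD of each group and every axis starting at 0. NOMO1, which was picked for its rise, goes from 52.5 and 63.1 to 129 and 157 CPM. NOMO2, NCLN, CCDC47 and TMCO1 have log2 fold changes between -0.085 and 0.068.

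Levels of the members were compared per kilobase of the exon length in the table. In siControl, CCDC47 stood highest at 89.3 ± 0.508 CPM per kb (SD, n = 2), above 98.2% of the genes tested. TMEM147 followed at 44.2 ± 0.278, TMCO1 at 40.4 ± 0.0522 and NCLN at 36.2 ± 0.364 CPM per kb, each above at least 94.3% of the genes tested.

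The single NOMO copies came last, with 10.6 ± 0.943 CPM per kb for NOMO2, 10.0 ± 1.29 for NOMO1 and 2.87 ± 0.207 for NOMO3. Only NOMO2 and NOMO1 overlapped among neighbours in this order. In siLOC730101 NOMO1 reached 24.7 ± 3.37 CPM per kb, above NOMO2 at 11.1 ± 0.207 in both libraries, and the rest of the order was unchanged.

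These levels of the NOMO copies depend on the length used, and the other lengths were tried after the data had been seen. Per kilobase of the main transcript, of 4312, 4352 and 4320 bases, siControl had 13.4 ± 1.73 CPM for NOMO1, 16.5 ± 1.47 for NOMO2 and 7.98 ± 0.575 for NOMO3. The sum of the copies on that scale was 37.9 ± 0.819 CPM per kb in siControl, beside 36.2 ± 0.364 for NCLN, and 56.8 ± 4.14 in siLOC730101, beside 34.6 ± 1.48 for NCLN. The sum was thus 1.05 times NCLN in siControl and 1.64 times NCLN in siLOC730101, with NCLN per exon length in the table. The higher value in siLOC730101 again holds the rise that NOMO1 was picked for.

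Per kilobase of windows of 100 bases found in that copy alone, the siControl order was NOMO2 at 106.8 ± 9.54 CPM, NOMO3 at 78.9 ± 5.68 and NOMO1 at 45.8 ± 5.92, and the same order held with windows of 50 and 150 bases. In siLOC730101 the values with 100 bases were 111.9 ± 2.09, 63.2 ± 6.75 and 113.1 ± 15.4 CPM per kb. NOMO1 was then level with NOMO2 within its spread, where per exon length it was more than 2 times as high. The exons of the table extend beyond the main transcripts, and a mate can place a read that lies outside such windows, so none of these scales gives the molar ratio of the copies.

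The other genes that insert and first process proteins at this membrane were taken as 56 genes of 8 lists, with WDR83OS and RAB5IF among them, chosen by their complexes. Of the 55 tested, 0 passed the edgeR threshold in either direction, beside 0.284% of all genes tested. An unadjusted p under 0.05 in edgeR was found for 14, beside 2094 of the 19349 genes tested. Their log2 fold changes ran from -0.25 to 0.41 with a median of 0.019, 33 above 0 and 22 below. DESeq2 called 5 of them, beside 234 higher and 74 lower over the whole table. More of them were called by edgeR without siLOC730101 replicate 1, and more genes were called over the whole table too. By unadjusted p and by DESeq2, a larger share of the 55 passed than of all genes tested, and the cause was not tested.

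Within the SEC61 channel list, 4 of 8 genes lay above 0, with a median of -0.009. SEC61G, the small gamma subunit of the channel, had 71.9 and 89.3 CPM in siControl and 109 and 105 CPM in siLOC730101, a log2 fold change of 0.41 (SE 0.099, adjusted p = 0.105, edgeR), and the groups did not overlap. SEC61A1, the channel pore itself, had -0.051 (adjusted p = 0.871, edgeR), and SEC61A2 was lowest at -0.14 (adjusted p = 0.817, edgeR).

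In the TRAP complex, which sits beside SEC61 and helps signal peptides to engage, 3 of 4 subunits were below 0 and the median was -0.082. SSR3 was the lowest of all 55, with 349.5 and 366.2 CPM in siControl and 305.0 and 297.2 CPM in siLOC730101, a log2 fold change of -0.25 (SE 0.072, adjusted p = 0.169, edgeR). SSR4 was the highest of the complex at 0.14 (adjusted p = 0.612, edgeR).

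In the oligosaccharyltransferase, which attaches N-glycans, 7 of 12 genes were above 0, from MAGT1 at -0.11 (adjusted p = 0.626, edgeR) to TMEM258 at 0.36 (adjusted p = 0.153, edgeR), with a median of 0.017. In the signal peptidase, SEC11C, a catalytic subunit, had 344.6 and 335.1 CPM in siControl and 405.2 and 466.8 CPM in siLOC730101, a log2 fold change of 0.36 (SE 0.079, adjusted p = 0.0764, edgeR). SPCS3 was the lowest of its 5 genes at -0.11 (adjusted p = 0.696, edgeR).

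Of the 10 genes of the EMC, an insertase for other membrane proteins, 7 were above 0, with EMC4 highest at 0.32 (adjusted p = 0.244, edgeR) and EMC6 lowest at -0.14 (adjusted p = 0.945, edgeR). Of the 7 GET genes, which insert tail-anchored proteins, 6 were above 0. The 7 ran from GET1 at -0.036 (adjusted p = 0.948, edgeR) to GET4 at 0.40 (adjusted p = 0.548, edgeR). Other genes share 80.8% of the exon bases of GET4, which had 240 to 350 counts in a library. For EMC6 the shared part was 74.0%, with 57 to 121 counts in a library. Among the 8 genes of the signal recognition particle and its receptor, SRP14 was highest at 0.30 (adjusted p = 0.116, edgeR) and SRP9 lowest at -0.12 (adjusted p = 0.652, edgeR). SRP9 and SRP14 form a heterodimer on the particle's RNA.

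**Figure D4:**
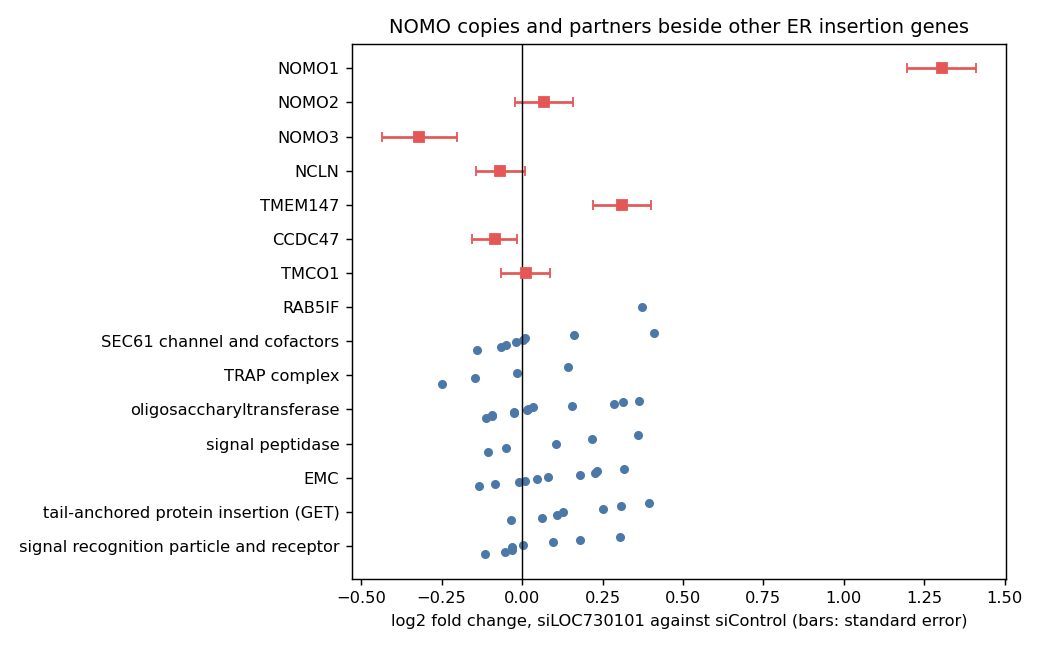
Log2 fold change (siLOC730101 against siControl) of the 7 members, as squares with SE bars, and of the 55 tested genes of the other ER insertion lists, as points in 1 row for each list. NOMO1, which was picked for its rise, lies at 1.30, and the other ER insertion genes lie between -0.25 and 0.41.

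The table held 108 other genes within 500 kb of a NOMO copy, of which 30 were tested. The edgeR threshold was passed by 0 of them, beside 0.284% of all genes tested. Of these 30, 8 had an unadjusted p under 0.05 in edgeR, beside 2094 of the 19349 genes tested. DESeq2 called 2 of them, beside 234 higher and 74 lower over the whole table. Leaving out a library gave 3 calls without siLOC730101 replicate 1 or 2 and 1 call without siControl replicate 1 or 2. Their median log2 fold change was -0.052, with 12 above 0 and 18 below. Around NOMO1, 8 of 15 tested genes were above 0 (median 0.026), around NOMO2 2 of 9 (median -0.139) and around NOMO3 2 of 6 (median -0.056).

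PDXDC1, a pyridoxal-phosphate-dependent decarboxylase-like gene 78.4 kb from NOMO1, was the highest of them. It had 99.1 and 79.7 CPM in siControl and 119 and 129 CPM in siLOC730101, a log2 fold change of 0.47 (SE 0.100, adjusted p = 0.0641, edgeR), and both siLOC730101 libraries were above both siControl libraries. The lowest near NOMO1 was the pseudogene NPIPP1 at -1.26 (adjusted p = 0.425, edgeR), from at most 107 counts in a library.

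Near NOMO2, RPS15A was highest at 0.37 (adjusted p = 0.122, edgeR), 219.1 kb away, and PKD1P5, a pseudogene 15.4 kb away, was lowest at -1.13 (adjusted p = 0.169, edgeR). PKD1P5 had 857 counts in siControl replicate 1 and 293 in replicate 2, against 248 and 156 in siLOC730101, and its log2 fold change without siControl replicate 1 was -0.301. Near NOMO3, the drug-efflux pump gene ABCC1 was highest at 0.25 (adjusted p = 0.271, edgeR), and ABCC6, a transporter gene 9.0 kb away, was lowest at -0.72 (adjusted p = 0.383, edgeR).

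**Figure D5:**
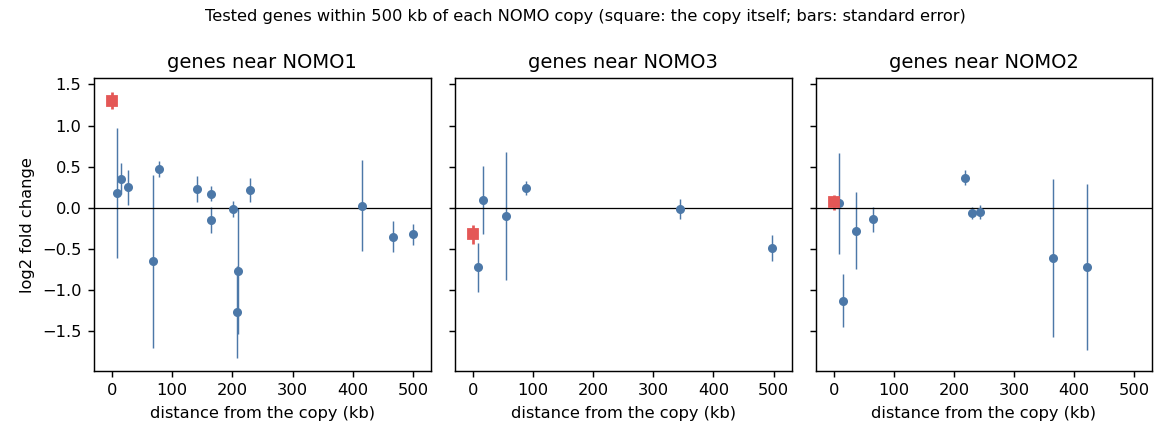
Log2 fold change of the 30 tested genes within 500 kb of a NOMO copy, by distance from the copy in kb in 1 panel for each copy, with SE bars and the copy itself as a square at 0. NOMO1, which was picked for its rise, stands at 1.30, and the highest of its neighbours, PDXDC1, at 0.47.

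The genes whose pattern over the 4 libraries was most like that of NOMO1 were found among 9879 genes with at least 10 mean CPM, by the Euclidean distance between log2 CPM centred on each gene's mean. They were SLC37A4, the glucose-6-phosphate transporter, at a distance of 0.415, NDUFA3, a complex I subunit, at 0.488, and the ribosomal protein genes RPS29, RPL38 and RPS21 at 0.558, 0.605 and 0.613. SLC37A4 had 9.4 and 6.9 CPM in siControl and 19.2 and 16.4 CPM in siLOC730101, and RPS21, the farthest of these, 247.2 and 284.2 against 407.6 and 513.3 CPM. These genes were chosen for the likeness, which describes 4 libraries.

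For the summed NOMO counts, the most alike were MRPL36, a mitochondrial ribosomal protein gene, at 0.0307, COPS9 at 0.046, the mitochondrial import chaperone gene TIMM8B at 0.0649, ATP5PF at 0.078 and SLC27A5 at 0.0802. MRPL36 had 20.6 and 20.1 CPM in siControl and 28.4 and 31.4 CPM in siLOC730101. None of the 5 genes most like the sum was among the 5 most like NOMO1 alone.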

How the data were processed

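The deposited values are counts: per the file header, the authors assigned reads to exons grouped by gene name with featureCounts 2.0.1 on GENCODE 41 and hg38, without normalization. The submitters' processing notes name FastQC, Trim Galore, BWA, featureCounts and DESeq2 with hg38, whereas the methods of the paper name STAR with hg19 and an earlier GENCODE release. The counts were used as deposited. The command has no paired-end, strand, multi-mapping or overlap option, and 66.0% to 70.1% of counts from 1 to 20 were even, so mates appear to be counted apart.

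In R 4.3.3, edgeR 4.0.16 was used with filterByExpr (19349 genes kept), TMM factors and the quasi-likelihood test with the condition as the only term. Two-sided p-values were adjusted over all genes tested by Benjamini-Hochberg, and a gene with adjusted p under 0.05 is called. CPM are counts scaled to a TMM-adjusted library of 1000000, and n = 2 a group. The test was tested on simulated data. Python 3.11.15 compared the transcripts, reading a GRCh37 reference, and no GRCh37 position was joined to the table. Alternatives were DESeq2 1.42.0, other scalings and filters, quasi-likelihood settings, halved counts, the replicate number as a term and each library left out. Replicates differed by more than sampling noise, with chi-square per degree of freedom of 10.62 and 12.97.

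The members and lists were chosen with earlier results of these data known. Genes named are the members, LOC730101, the partners WDR83OS and RAB5IF, some of the cell-type markers and the genes past the threshold. Also named are the highest and lowest of each list or neighbourhood, overlapping genes, and the 5 nearest in pattern. SEC61A1 was named after its value was seen. Results for 2 further marker genes are not reported here.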

Additional observations from a re-analysis of the deposited data

How the results depend on the processing

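Over the 13 alternatives the log2 fold change of NOMO1 ranged from 1.15 to 1.45. It was called in each, which is no independent evidence, since NOMO1 was picked for its change in these libraries. Where a library was left out, the lone library of its group was assumed to vary like the other group, so these calls rest on the spread of 2 libraries. NOMO2 ranged from -0.020 to 0.164, NOMO3 from -0.425 to -0.218, NCLN from -0.115 to -0.016, CCDC47 from -0.122 to -0.071, TMEM147 from 0.197 to 0.425 and TMCO1 from -0.052 to 0.079. TMCO1 lay below 0 with upper-quartile factors (-0.020), with library size only (-0.027) and without siLOC730101 replicate 2 (-0.052). Members called higher were 2, with TMEM147 the second, without a filter beyond 1 count, with the replicate number as a block and without siLOC730101 replicate 1. Leaving out each library gave 1 to 2 members higher and 0 to 1 lower, NOMO3 being called at -0.425 without siLOC730101 replicate 1. The summed NOMO counts ranged from 0.503 to 0.664, and the share of NOMO1 from 20.1 to 25.5 percentage points higher. Both hold the rise that NOMO1 was picked for.

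Calls over the whole table were 324 higher and 113 lower without the filter, 234 and 74 with DESeq2, 485 and 167 with the block, 87 and 24 with the legacy method off, and 113 and 35 with halved counts. With library size only, 58 were higher and 35 lower. Leaving out siControl replicate 1 gave 117 and 49, siControl replicate 2 111 and 26, siLOC730101 replicate 1 923 and 272, and siLOC730101 replicate 2 77 and 60. The other ER insertion genes called were 4 without the filter, 5 with DESeq2, 7 with the block, 1 with legacy off, 2 with halved counts and 0 to 15 without a library. Genes near the copies called were 3, 2, 4, 1 and 1 in that order and 1 to 3 without a library, and those of the copied 16p families 2, 1, 2, 1 and 1, and 1 to 4 without a library. SEC61G was called in 7 of the 13 alternatives, SEC11C in 6 and PDXDC1 in 8. The cause of these moves was not tested.

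The labels do not say whether libraries with the same replicate number belong together. The differences between replicates 1 and 2 correlated by r = 0.0699 between the groups over 9886 genes. With a single such difference in each group, this value cannot show whether the libraries were paired. No scaling moved the median of all genes by more than 0.039. Per kilobase of exon bases in no other gene the order of the 7 levels in siControl was unchanged. NPIPP1, the low neighbour of NOMO1, had 19 to 107 counts in a library, where each member had at least 969.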

Other observations

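Promoters of the RefSeq table (GRCh38.p14, 250 bases before to 50 after a start) were held for NOMO2, NCLN, TMEM147, CCDC47 and TMCO1. NOMO2 and TMCO1 had 2 promoters each, and a motif in either was taken for the gene, whereas the percentages count single promoters. Searched on both strands, CCAAT was found in those of CCDC47 and TMCO1, beside 34.6% of 35116 promoters, CCACG in NOMO2, TMCO1 and TMEM147, beside 38.1%, and GGGCGG in CCDC47, NCLN and NOMO2, beside 45.0%. TGACGTGG (0.7% of promoters) and the palindromic NRF1 motif (1.2%) were in none of them. TGACGTGG contains CGTGG, the reverse complement of CCACG.

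Of 40 genes of families copied in the same region of chromosome 16, 29 were tested. The edgeR threshold was passed by 0, beside 0.284% of all genes tested. Many of them, with PDXDC1 and PKD1P5, are also among the genes near the NOMO copies, so the 2 sets are not separate observations. Of these 29, 4 had an unadjusted p under 0.05 in edgeR, beside 2094 of the 19349 genes tested. DESeq2 called 1 of them, beside 234 higher and 74 lower over the whole table. Their median log2 fold change was -0.139, with 11 above 0. NPIPB9 was highest at 0.88 (adjusted p = 0.628, edgeR), from 29 to 59 counts in a library, and PKD1P5 lowest at -1.13 (adjusted p = 0.169, edgeR).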
